A study of Mus musculus with 4 samples.

Results

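The genes described are 6 enzymes that process reactive or lipid-derived molecules in mouse renal cortex: the alpha-class glutathione transferases Gsta2, Gsta3 and Gsta4, the microsomal epoxide hydrolase Ephx1, the leukotriene C4 synthase Ltc4s and the carboxylesterase Ces1g. They were found by gene symbol in the platform's annotation, which gave 1 probe for each, so they are 6 of 9077 genes named on the array. They were selected on their measured log2 differences between diabetic and nondiabetic kidneys in these data, with no set threshold, so those differences are described here without a test. Gsta2, Gsta3, Gsta4, Ephx1 and Ltc4s gave more signal on the array from diabetic mice than on that from nondiabetic mice of the same genotype, and Ces1g gave less, in mice with and without ICAM-1.

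The groups were diabetic mice lacking ICAM-1 (DM-KO), nondiabetic mice lacking ICAM-1 (ND-KO), diabetic wild-type mice (DM-WT) and nondiabetic wild-type mice (ND-WT). ICAM-1 is an endothelial adhesion molecule through which leukocytes attach to and leave vessels. All mice were male and of the C57BL/6J background, and the KO mice carried the ICAM-1-/- genotype in every cell. Diabetes followed 1 intraperitoneal dose of 200 mg/kg streptozotocin (STZ), a toxin of pancreatic beta cells, in citrate buffer at 8 weeks of age, and the nondiabetic mice were injected with the buffer alone. Blood glucose was read 7 days after STZ, and a diabetic mouse entered the study only above 16 mmol/L. Kidneys were taken 12 weeks after injection, at 20 weeks of age. The labels give 5 mice a group and the files 1 CodeLink array a group, and whether that array holds the RNA of 1 mouse or of several is not stated, so the spread between mice is unknown for every value.

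Glutathione transferases join the tripeptide glutathione to electrophiles, which makes them soluble and ready for export. The alpha class is abundant in the proximal tubule and the liver and also reduces lipid peroxides, and several of its genes are known targets of the transcription factor NRF2, which binds the antioxidant response element. Epoxide hydrolases open epoxides with water, carboxylesterases cleave ester bonds of drugs and lipids, and leukotriene C4 synthase, a membrane relative of the glutathione transferases, joins glutathione to leukotriene A4.

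The genes lie at 5 places in the genome (RefSeq annotation, build GRCm38.p6), all protein-coding. Gsta3 spans chr1:21240565-21265575 and Ephx1 chr1:180989556-181017569. Ces1g spans chr8:93302369-93337209 and Ltc4s chr11:50236461-50238532. Gsta4 (chr9:78191966-78209349) and Gsta2 (chr9:78331018-78347192) lie on the same chromosome with their lowest coordinates 139 kb apart, and Gsta1 (chr9:78230669-78242683) lies between them. No probe on the array was named for Gsta1. Probe sequences were not used here, so how far the Gsta2 probe also reads its near relative Gsta1 was not tested.

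Promoters are shown as a description. Each of the 6 genes kept its direction in both genotypes, with Ces1g opposite to the others, and the genes were chosen on those differences. A common direction is therefore no sign of a common promoter motif. RefSeq's table held the window from 250 bases before to 50 bases after the start of 5 of the 6 genes, printed 5' to 3' in the gene's own direction. For Gsta2 and Gsta3 that start lies inside the gene span given above, not at its end, and motif positions are counted from it. Gsta4 is named only. Capitals mark matches, on either strand, to 4 short motifs: the antioxidant response element core TGACNNNGC, the nuclear receptor motif AGGTCA, the TATA box TATAAA and the GC box GGGCGG.
Gsta2, chr9:78347096-78347395, minus strand: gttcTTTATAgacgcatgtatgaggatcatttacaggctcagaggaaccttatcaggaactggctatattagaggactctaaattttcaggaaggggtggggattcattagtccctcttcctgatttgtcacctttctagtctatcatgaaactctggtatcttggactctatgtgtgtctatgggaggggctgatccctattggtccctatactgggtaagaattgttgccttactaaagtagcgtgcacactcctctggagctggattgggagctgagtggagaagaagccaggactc
Gsta3, chr1:21240335-21240634, plus strand: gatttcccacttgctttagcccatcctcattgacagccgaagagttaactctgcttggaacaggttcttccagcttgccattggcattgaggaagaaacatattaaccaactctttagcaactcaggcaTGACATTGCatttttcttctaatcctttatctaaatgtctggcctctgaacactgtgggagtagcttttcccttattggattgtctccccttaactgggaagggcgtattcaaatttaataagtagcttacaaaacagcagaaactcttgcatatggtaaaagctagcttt
Ephx1, chr1:181017520-181017819, minus strand: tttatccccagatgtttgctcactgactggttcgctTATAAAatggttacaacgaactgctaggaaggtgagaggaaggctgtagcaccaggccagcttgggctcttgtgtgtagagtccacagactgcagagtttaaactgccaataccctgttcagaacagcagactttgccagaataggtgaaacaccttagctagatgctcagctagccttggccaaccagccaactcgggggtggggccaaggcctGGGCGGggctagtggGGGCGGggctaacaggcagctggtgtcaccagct
Ltc4s, chr11:50238483-50238782, minus strand: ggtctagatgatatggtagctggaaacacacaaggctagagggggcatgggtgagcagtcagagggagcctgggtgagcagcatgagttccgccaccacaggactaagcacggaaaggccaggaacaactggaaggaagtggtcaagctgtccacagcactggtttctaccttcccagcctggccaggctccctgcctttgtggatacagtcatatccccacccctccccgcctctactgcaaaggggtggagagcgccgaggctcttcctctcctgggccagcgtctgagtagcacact
Ces1g, chr8:93337160-93337459, minus strand: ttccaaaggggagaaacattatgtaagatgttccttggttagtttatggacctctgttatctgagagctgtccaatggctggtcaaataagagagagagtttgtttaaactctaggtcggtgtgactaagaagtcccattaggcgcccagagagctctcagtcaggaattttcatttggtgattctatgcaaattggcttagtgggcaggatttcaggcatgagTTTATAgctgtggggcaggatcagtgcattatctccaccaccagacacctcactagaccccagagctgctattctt

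Gsta3 was the single one of the 5 windows with the antioxidant response element core, TGACATTGC at bases -121 to -113 from the start. That core occurs in 12.4% of 32851 mouse promoter windows of this length. TATAAA, present in 13.6% of promoters, occurred in Ephx1 from -214 in the gene's own direction. In Gsta2 from -246 and in Ces1g at -26 to -21 it lay on the opposite strand, so those windows read TTTATA. Ephx1 held GGGCGG at bases 1 to 6 and 16 to 21 after its start, a motif of 35.7% of promoters. AGGTCA, in 16.3% of promoters, was in none of the 5, and Ltc4s held none of the 4 motifs. No matches overlapped in these windows. The Gsta2 window and that of Gsta1 were identical at 232 of 289 aligned bases (80.3%), against 54.8% to 70.0% for the 14 other pairs among these promoters. A match is a run of letters and is no evidence of a bound factor. A motif absent from a window may still lie outside it, where no search was made.

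Each array carried 10032 gene probes, of which 66.2% on DM-KO, 65.9% on ND-KO, 62.8% on DM-WT and 64.8% on ND-WT were marked usable, meaning above local background. Bacterial RNA added to each sample gave signal at 1.22 times the ND-WT level on DM-KO, 1.25 times on ND-KO and 0.558 times on DM-WT, so DM-WT stands apart from the rest in this signal, and at which step was not tested. The spots of 1 bacterial probe on an array differed by an SD of 0.082 to 0.099 on the log2 scale, which puts the spot-to-spot spread of a difference between arrays at 0.131. That spread comes from spots within an array. It includes neither differences between mice nor those between arrays in labelling or hybridisation. Values of Icam1 were not analysed here, so no transcript checks which mice lacked the gene. All 14 proximal tubule markers with a probe were usable on all 4 arrays, and of 4 adrenal cortex markers with a probe none was. Of 5 adipocyte markers with a probe, 4 were usable on ND-KO and 2 on each other array. Cfd was at log2 6.99 on ND-KO, against 5.85 on DM-KO, 5.96 on DM-WT and 5.90 on ND-WT. Adipoq was at 6.58 on ND-KO, against 5.78, 5.82 and 5.96 in that order, while Fabp4 was highest on DM-WT (10.26). The part of adipose tissue in the KO differences was not tested. A diabetes difference below is the log2 intensity of the diabetic array minus that of the nondiabetic array of the same genotype, after background correction and quantile normalization. The median over 5914 genes measured on all 4 arrays was -0.01 in KO and -0.00 in WT. Quantile normalization gives the arrays the same distribution, so these medians do not show that the arrays were balanced. With median scaling they were -0.02 in KO and -0.08 in WT, and in the deposited value table -0.05 in KO and -0.07 in WT.

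**Figure D1:**
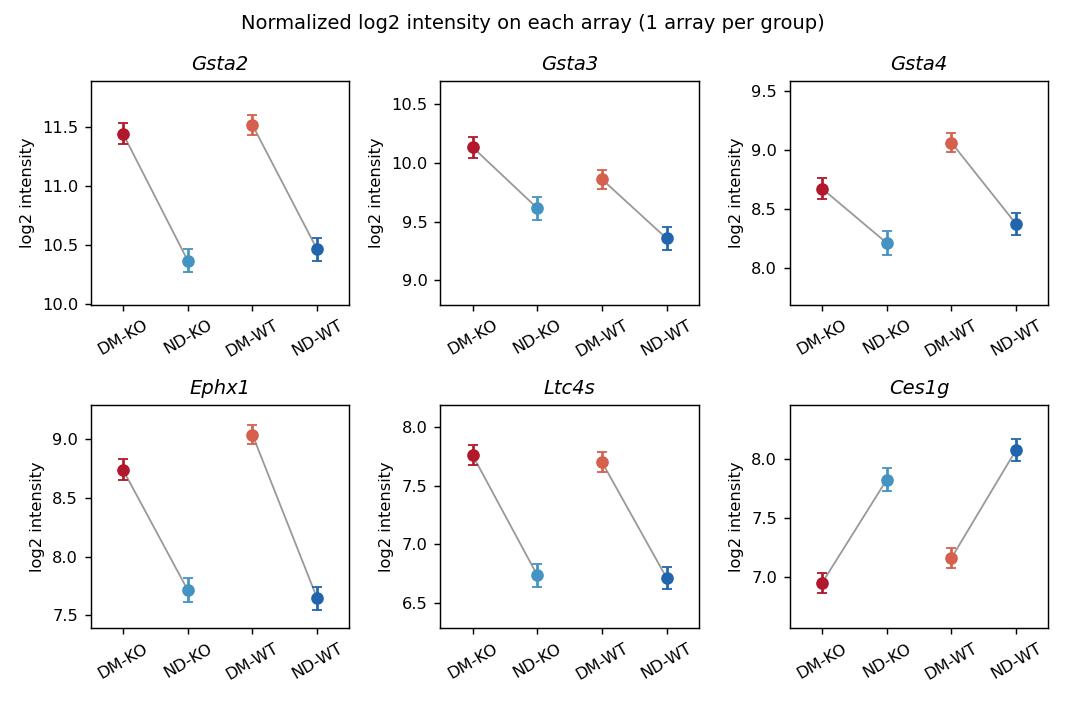
Normalized log2 intensity of the 6 enzyme genes on each of the 4 arrays (DM-KO, ND-KO, DM-WT, ND-WT), 1 point an array, with bars of 1 SD between spots of a bacterial control probe on that array and a line joining the arrays of 1 genotype. Gsta2, Gsta3, Gsta4, Ephx1 and Ltc4s are higher on the diabetic array in each genotype and Ces1g is lower, and each panel spans the same log2 range.

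Gsta2 encodes a transferase that handles organic hydroperoxides. Its background-subtracted spot intensity was 2797 on DM-KO, 1349 on ND-KO, 2517 on DM-WT and 1495 on ND-WT. After normalization its log2 intensity was 11.45 on DM-KO, 10.37 on ND-KO, 11.52 on DM-WT and 10.46 on ND-WT. Both diabetic arrays thus lay above both nondiabetic arrays, by 2.11-fold in KO and 2.08-fold in WT. Among genes measured on both arrays of the pair, that was the 6th highest difference of 6339 in KO and the 25th of 6055 in WT.

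Gsta3 encodes the alpha-class transferase known in mice for conjugating the epoxide of aflatoxin B1. Its background-subtracted intensity was 1099 on DM-KO, 785 on ND-KO, 740 on DM-WT and 644 on ND-WT. Its normalized log2 intensity was 10.13 on DM-KO, 9.61 on ND-KO, 9.86 on DM-WT and 9.36 on ND-WT. The diabetes difference was 0.52 in KO (1.43-fold) and 0.50 in WT (1.42-fold). Both diabetic arrays exceeded both nondiabetic ones, and each KO array exceeded the WT array of the same diabetic state.

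Gsta4 encodes a transferase with high activity toward 4-hydroxynonenal, an aldehyde from lipid peroxidation. Its background-subtracted intensity was 379 on DM-KO, 260 on ND-KO, 415 on DM-WT and 295 on ND-WT. Its normalized log2 intensity was 8.67 on DM-KO, 8.21 on ND-KO, 9.06 on DM-WT and 8.37 on ND-WT. The difference was 0.46 in KO (1.38-fold) and 0.69 in WT (1.62-fold). The highest array was DM-WT and the lowest ND-KO.

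Ephx1 encodes microsomal epoxide hydrolase, which turns epoxides of drugs and pollutants into diols. Its background-subtracted intensity was 395 on DM-KO, 168 on ND-KO, 406 on DM-WT and 158 on ND-WT. Its normalized log2 intensity was 8.74 on DM-KO, 7.72 on ND-KO, 9.04 on DM-WT and 7.65 on ND-WT. It was 2.03-fold higher with diabetes in KO and 2.62-fold higher in WT, the 8th highest difference in KO and the 11th in WT. The nondiabetic arrays lay close together and the diabetic arrays apart.

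Ltc4s makes leukotriene C4, the parent of the cysteinyl leukotrienes, which contract smooth muscle and raise vessel permeability. Its spots were dim: the background-subtracted intensity was 178 on DM-KO, 59.6 on ND-KO, 137 on DM-WT and 56.6 on ND-WT, beside a median local background of 46 to 47. Its normalized log2 intensity was 7.76 on DM-KO, 6.74 on ND-KO, 7.70 on DM-WT and 6.72 on ND-WT. It was 2.03-fold higher with diabetes in KO and 1.98-fold higher in WT, and the 2 genotypes nearly coincided in each state. Macrophages, mast cells and eosinophils are known to make the enzyme, so their markers are given beside it. All 6 macrophage and monocyte markers measured on every array, of 9 with a probe, were higher with diabetes in both genotypes, with a median difference of 0.36 in KO and 0.84 in WT. For comparison, 47.7% of 5914 genes measured on every array were higher with diabetes in KO and 49.8% in WT. Their summed value in the deposited table was 21.9 on DM-KO, 16.0 on ND-KO, 29.9 on DM-WT and 15.1 on ND-WT, while Adgre1 and Itgam were usable on 0 arrays. The 6 mast cell and eosinophil markers measured on every array, of 11 with a probe, summed to 43.0 on DM-KO, 51.7 on ND-KO, 48.5 on DM-WT and 49.6 on ND-WT. That sum mostly follows 1 gene, Siglecf, and is not read as a level of these cells. On DM-KO the normalized log2 intensity of Siglecf was 10.72, and that of the next brightest of the 6, Tpsb2, was 7.37. Of the 6 markers 1 was higher and 5 were lower with diabetes in KO (median -0.02), and 6 were higher in WT (median 0.09). Cpa3, Mcpt1, Prg2 and Epx were usable on 0 arrays. The macrophage sum was higher on both diabetic arrays and highest on DM-WT, and its part in the Ltc4s difference was not tested.

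Ces1g encodes a carboxylesterase known in mouse liver for a part in lipid metabolism. Its background-subtracted intensity was 78.9 on DM-KO, 186 on ND-KO, 81.3 on DM-WT and 231 on ND-WT. Its normalized log2 intensity was 6.95 on DM-KO, 7.82 on ND-KO, 7.16 on DM-WT and 8.08 on ND-WT. The difference was -0.88 in KO, the 7th lowest of 6339, and -0.92 in WT, the 11th lowest of 6055. Both diabetic arrays lay below both nondiabetic arrays. Proximal tubule markers, set beside all 6 genes here, were lower with diabetes, 13 of 14 in each genotype, with a median difference of -0.16 in KO and -0.28 in WT. Across 5914 genes measured on every array, 47.7% were higher with diabetes in KO and 49.8% in WT. Their summed table value was 364 on DM-KO, 479 on ND-KO, 352 on DM-WT and 495 on ND-WT, and their part in the differences of Ces1g and of the 5 higher genes was not tested. In whole cortex, fewer cells of a type and less RNA per cell cannot be told apart.

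**Figure D2:**
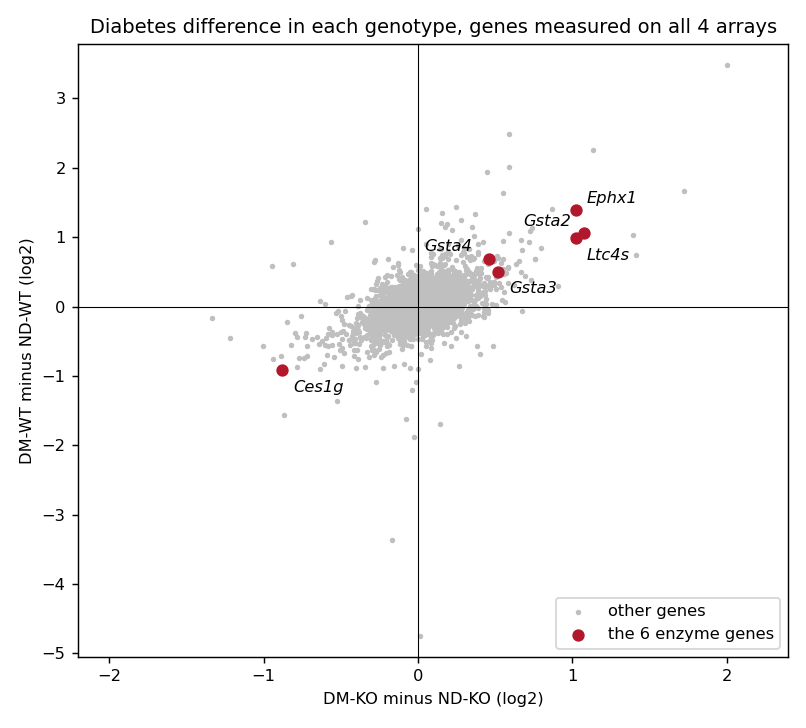
Log2 difference of diabetic minus nondiabetic arrays in KO mice (x axis) and WT mice (y axis), 1 grey point for each of 5914 genes measured on all 4 arrays, with the 6 enzyme genes in red. Gsta2 and Ltc4s lie near 1 on both axes, Ephx1 at 1.02 in KO and 1.39 in WT, Gsta3 near 0.5 on both, Gsta4 at 0.46 in KO and 0.69 in WT, and Ces1g at -0.88 in KO and -0.92 in WT.

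In KO, Gsta2, Ephx1 and Ltc4s were at least 1.5-fold higher with diabetes, as were 0.536% of 6339 genes, and Ces1g was at least 1.5-fold lower, as were 0.505%. In WT, Gsta4 joined them among the higher genes (1.75% of 6055 genes), though with median scaling its difference of 0.53 was under 1.5-fold, and Ces1g was again at least 1.5-fold lower (0.875%). Since this contrast chose the genes, nothing is read from those counts. The size of the difference depends on how dim spots are treated, because the offset of 50 added to each intensity pulls their ratios toward 1. In the deposited value table, which has no offset, the diabetic over nondiabetic ratio of Ltc4s was 2.86-fold in KO and 2.79-fold in WT. Ephx1 was 2.25-fold higher in KO and 2.97-fold higher in WT, and Ces1g stood at 40.7% of ND-KO on DM-KO and at 40.6% of ND-WT on DM-WT. The brighter Gsta2 was 1.99-fold higher in KO and 1.94-fold higher in WT there, Gsta3 1.34-fold in KO and 1.33-fold in WT, and Gsta4 1.40-fold in KO and 1.63-fold in WT. The direction was the same for all 6 genes in both genotypes under each of 7 alternatives, 84 of 84 values. The alternatives that only changed the filter on usable arrays left every member's value as it was, so they were no check. Because the genes were chosen on this contrast, the count describes the processing only.

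**Figure D3:**
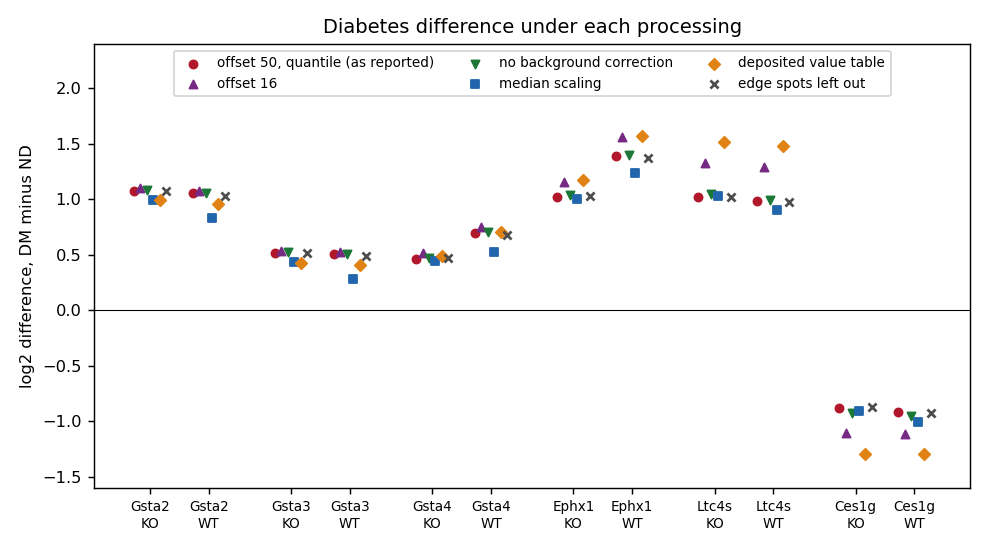
Log2 difference of diabetic minus nondiabetic arrays (y axis) for each enzyme gene in KO and WT mice (x axis), with 1 symbol for each of 6 ways of processing the spot intensities. Values for Ltc4s, Ephx1 and Ces1g are farther from 0 in the deposited value table and with an offset of 16, and WT values of Gsta2 and Gsta3 are closer to 0 with median scaling.

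Loss of ICAM-1 was compared in both diabetic states, to ask whether these genes differ without it. The model fitted to all genes had a diabetes term and a genotype term (limma), which leaves 1 residual degree of freedom a gene. That residual measures how unlike the diabetes differences of the genotypes are, and the genes were chosen on those differences, so their SEs are not independent of the choice. Of 6512 genes tested, 3 passed an adjusted p of 0.05 for genotype (0.0461%), and 0 of the 6 enzyme genes did (592 genes, 9.09%, and 3 of the 6 had an unadjusted p under 0.05). None was 1.5-fold different between KO and WT in either state, against 1.83% of genes between the diabetic arrays and 0.623% between the nondiabetic ones.

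Gsta3 was higher in KO than in WT by 0.27 with diabetes and 0.26 without, and the fitted difference was 0.27 (SE 0.061, adjusted p = 0.423 in limma). Gsta4 differed by -0.39 with diabetes and -0.16 without, with a fitted difference of -0.28 (SE 0.083, adjusted p = 0.482 in limma). Ces1g differed by -0.21 with diabetes and -0.25 without, with a fitted difference of -0.23 (SE 0.062, adjusted p = 0.449 in limma). These 3 differences exceeded the spot-to-spot spread of 0.131 in both states and did not pass over all genes. That spread is 1 SD between control spots and not a cutoff. The share of all genes beyond it was not counted, so nothing is read from being within or beyond it. Gsta2 differed by -0.08 with diabetes and -0.10 without (adjusted p = 0.692 in limma), and Ltc4s by 0.06 with diabetes and 0.02 without (adjusted p = 0.851 in limma), all within that spread. With median scaling the difference between diabetic arrays was 0.01 for Gsta2 and 0.15 for Ltc4s. Between nondiabetic arrays Gsta2 was then at -0.16. In the deposited value table Gsta2 was at -0.15 with diabetes and -0.18 without, so it left that spread under some alternatives. A p above the threshold with 1 array a group does not show that KO and WT are alike.

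Ephx1 stood at -0.30 between DM-KO and DM-WT and at 0.07 between ND-KO and ND-WT, and its fitted difference was -0.11 (SE 0.109, adjusted p = 0.756 in limma). The diabetes difference of Ephx1 was thus smaller in KO than in WT by 0.37 on the log2 scale, and that of Gsta4 by 0.23. With 1 array a group that difference between genotypes has no test. In size, 5.92% of 5914 genes differed more than Ephx1 and 17.7% more than Gsta4. With median scaling in place of quantile normalization the gap was 0.24 for Ephx1 and 0.09 for Gsta4. For the other genes the KO minus WT diabetes difference was 0.02 for Gsta2, 0.02 for Gsta3, 0.04 for Ltc4s and 0.04 for Ces1g, and 0.17, 0.15, 0.12 and 0.10 for the same genes with median scaling.

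**Figure D4:**
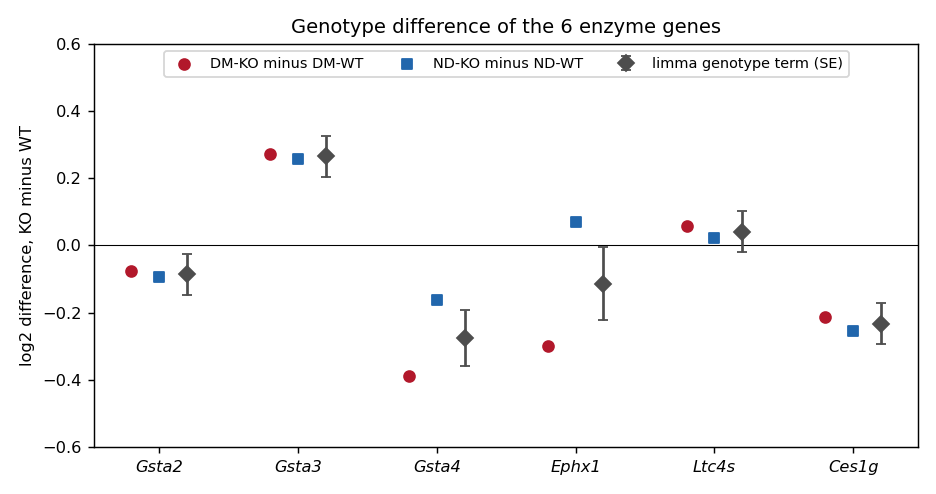
Log2 difference of KO minus WT for the 6 enzyme genes between diabetic arrays (circles), between nondiabetic arrays (squares) and as fitted over all 4 arrays in limma (diamonds, bars of 1 SE). Gsta3 is above 0 and Gsta4 and Ces1g below 0 in both states, while Ephx1 is at -0.30 with diabetes and 0.07 without, and no fitted difference passed over all genes.

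Other genes of the same pathways were taken from 6 lists with 162 genes besides the 6 enzymes, of which 118 had a probe and 84 were tested. The lists were written with earlier results of these data known, so the shares below are not read as a result about the pathways. In the diabetes term of the same fit 1 of 6512 genes passed (0.0154%) and 0 of the 84 did, while 21 of the 84 (25.0%) and 12.8% of all genes had an unadjusted p under 0.05. The arrays have a strip of 500 gene probes along 1 edge, and the KO and WT diabetes differences were at least 1.5-fold apart for 6.70% of 224 genes with probes only there, against 1.39% of 5690 other genes. With that strip left out on all arrays 95 of 6219 genes passed (1.53%), higher for 0.836% and lower for 0.691%. So did 4 of 82 listed genes, of which Mgst1, Cbr1 and Cbr3 rose and Ggct fell. Cbr3 was usable on only 2 arrays, the least that the fit accepts, and was brighter on both diabetic arrays. It may have entered the fit through those arrays, so its call is not read as a result. None of the 6 enzymes has its spot in the strip.

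Among other glutathione transferases, 8 of 11 genes measured on all arrays were higher with diabetes in KO and 7 in WT, with median differences of 0.13 in KO and 0.06 in WT. Over all 5914 genes measured on every array, 47.7% were higher with diabetes in KO and 49.8% in WT. Mgst1, a microsomal transferase and peroxidase, had the largest difference, 0.54 in KO and 0.62 in WT (adjusted p = 0.131, 0.0250 without the edge strip and 0.0549 with median scaling, limma). Gsto1, an omega-class transferase, was at 0.33 in KO and 0.49 in WT and Gstp1, the pi-class enzyme, at 0.29 in KO and 0.11 in WT, while Gstz1, which acts in tyrosine breakdown, was at -0.05 in KO and -0.42 in WT. None of the 3 passed either fit. Genes that make, recycle and break down glutathione had a median near 0, -0.04 in KO and 0.00 in WT over 17 genes. Ggct, gamma-glutamylcyclotransferase, was at -0.50 in KO and -0.62 in WT (adjusted p = 0.143, and 0.0302 without the strip, limma). Nat8, which acetylates cysteine conjugates, was at -0.40 in KO and -0.62 in WT (adjusted p = 0.173, 0.0536 without the strip and 0.0456 with median scaling, limma), and Ggt1, which splits extracellular glutathione, at -0.15 in KO and -0.41 in WT. The brush border peptidase Anpep was at 0.06 in KO and 0.48 in WT. Gclc, the catalytic subunit of the enzyme that starts glutathione synthesis, was at -0.27 in KO and 0.15 in WT from a probe in the edge strip, and its modifier subunit Gclm at -0.09 in KO and -0.04 in WT.

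The carboxylesterases Ces1e and Ces1d were lower with diabetes in both genotypes, as Ces1g was. Of 4 other epoxide hydrolase and carboxylesterase genes measured on all arrays, 3 were lower with diabetes in KO and 4 in WT, with medians of -0.25 in KO and -0.40 in WT, and 0 of the 4 passed in either fit. Among all genes measured on every array, 47.7% were higher in KO and 49.8% in WT. Ces1e was at -0.32 in KO and -0.72 in WT, Ces1d at -0.37 in KO and -0.44 in WT, and the soluble epoxide hydrolase Ephx2 at -0.18 in KO and -0.36 in WT, opposite to Ephx1. Ces1 genes are close relatives, and how far their probes share signal was not tested. Aadac, an arylacetamide deacetylase, was at 0.17 in KO and -0.07 in WT.

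The measured genes of the leukotriene and prostanoid list had smaller diabetes differences than Ltc4s. Their medians were 0.06 in KO and 0.06 in WT over 12 genes, and 0 of 13 passed in either fit. Alox5ap, which presents arachidonic acid to 5-lipoxygenase, was at 0.16 in KO and 0.52 in WT, and Ptgds, a prostaglandin D synthase, at 0.09 in KO and 0.59 in WT. Lta4h, which turns leukotriene A4 into leukotriene B4, was at 0.20 in KO and -0.17 in WT. Hpgd, which inactivates prostaglandins, was at 0.34 in KO and 0.10 in WT, and Ptgr1, which reduces leukotriene B4 and prostaglandin metabolites, at -0.05 in KO and -0.34 in WT. The cysteinyl leukotriene receptors Cysltr1 and Cysltr2 were usable on 0 arrays.

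NRF2 and its other targets had medians of 0.11 in KO and 0.07 in WT over 21 genes, with 15 of them higher in KO and 14 in WT. The share of all genes that were higher was 47.7% in KO and 49.8% in WT. The carbonyl reductase Cbr1 was at 0.55 in KO and 0.68 in WT (adjusted p = 0.131, and 0.0239 without the strip, limma). Its relative Cbr3 was usable on 2 arrays, so its values rest in part on spots not above background, and had an adjusted p of 0.0341 without the strip (limma). Nqo1, a quinone reductase, was at 0.56 in KO and 0.21 in WT and the haem oxygenase Hmox1 at 0.14 in KO and 0.63 in WT, while malic enzyme Me1 was at -0.34 in KO and -0.45 in WT. Nfe2l2, which encodes NRF2, was at 0.22 in KO and 0.19 in WT (adjusted p = 0.322, limma). Xenobiotic receptors and cytochrome P450 partners had medians of -0.05 in KO and 0.13 in WT over 13 genes, and 0 of 15 passed. The electron carrier Cyb5a was at -0.29 in KO and -0.49 in WT, Cyp2j5, a kidney and liver arachidonic acid epoxygenase, at -0.09 in KO and -0.44 in WT, and Cyp2d22 at 0.24 in KO and 0.51 in WT. The receptors Nr1i2 and Nr1i3 were usable on 0 arrays.

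**Figure D5:**
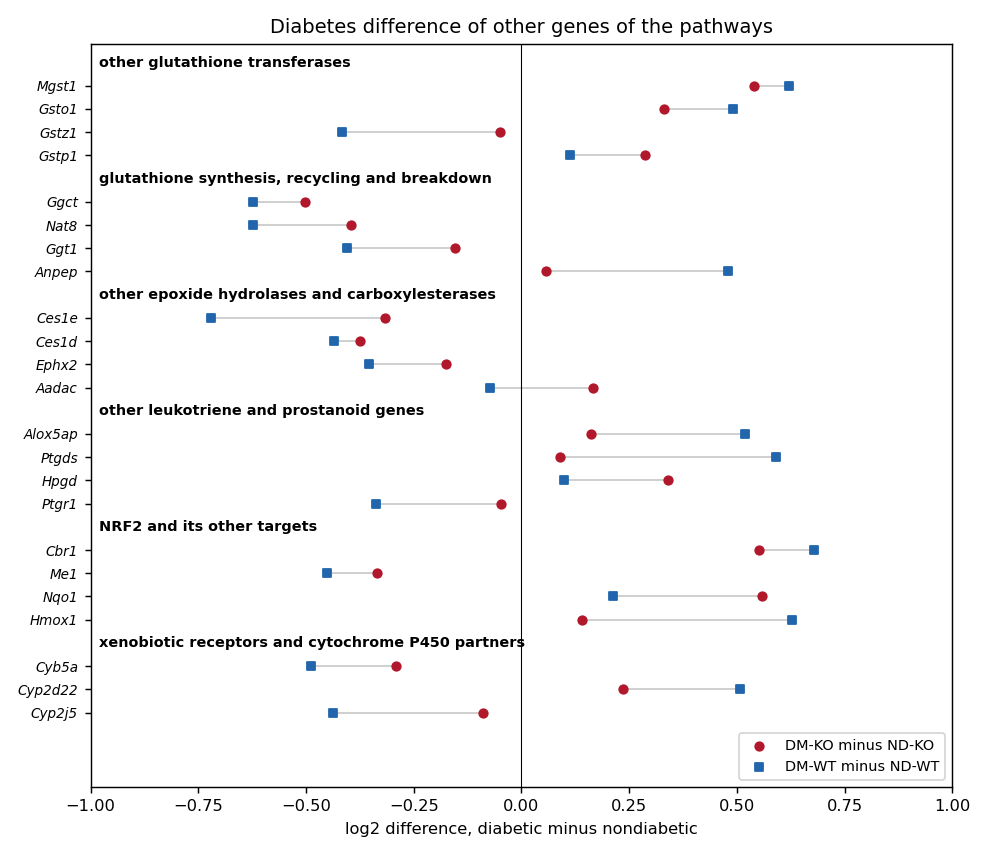
Log2 difference of diabetic minus nondiabetic arrays (x axis) in KO mice (circles) and WT mice (squares) for 3 or 4 of the genes with the largest mean difference in each of 6 pathway lists. Mgst1 and Cbr1 lie above 0.5 in both genotypes, and Ggct and Ces1e are on the negative side in both.

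Genes with the most similar pattern to each enzyme were sought by the root mean square distance between log2 values centred on their own mean over the 4 arrays, among 5437 genes that are not members. With 4 points and the diabetes contrast shared by construction, this is a description. Gsta2 was nearest to Aldh1a7, an aldehyde dehydrogenase with a near relative in Aldh1a1 (distance 0.117), then to Hacl1, a lyase of fatty acid alpha-oxidation (0.123), and Bhmt, which remethylates homocysteine (0.136). Ltc4s was nearest to Bhmt (0.0937), Hacl1 (0.123) and Kynu, an enzyme of tryptophan breakdown (0.145). Gsta3 lay close to the diamine oxidase Aoc1 (0.0192) and to Mgst1 (0.0460). Gsta4 lay beside clusterin, Clu (0.0175), the lysozyme Lyz1 (0.0512) and Serpinb6a (0.0764), all lower in KO than in WT in both states as Gsta4 was. Ephx1 was nearest to the stress cytokine Gdf15 (0.0554), which had diabetes differences of 0.87 in KO and 1.41 in WT, then to Hacl1 (0.136) and Aldh1a7 (0.183). Ces1g was nearest to Myo18b, a myosin (0.0722), to the cytochrome Cyp2e1, whose spot is in the edge strip (0.0954), and to Acsm3, a medium-chain acyl-CoA synthetase of the proximal tubule (0.104). Within the set, Gsta2 and Ltc4s were the closest pair (0.0712), followed by Gsta2 and Ephx1 (0.120) and Ephx1 and Ltc4s (0.163). The alpha-class genes were farther from each other, at 0.270 for Gsta2 and Gsta4, 0.279 for Gsta3 and Gsta4 and 0.329 for Gsta2 and Gsta3.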

How the data were processed

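Renal cortex RNA of 4 groups was hybridised to 1 one-colour CodeLink array each, per the labels. The authors deposited spot mean and local background median intensity on a linear scale, per the file headers, and a value table, also intensity. That table equalled spot mean minus background divided by 1 constant per array (46.9 for DM-KO, 45.0 for ND-KO, 38.1 for DM-WT and 43.9 for ND-WT). This held within 0.1% for 100% of the probes compared, from 7928 on DM-WT to 8024 on ND-KO, with the dimmest left out. Its medians were 0.930, 0.929, 0.930 and 0.926 in that order; how the constant was chosen stays unknown.

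From the deposited intensities, normexp (offset 50), log2 and quantile normalization were applied in limma 3.58.1 (R 4.3.3). Control spots were left out and poor spots set to missing. Of 10032 gene probes, 9209 had 1 symbol (8923 from the platform, 286 through accessions), 1 several and 822 none, and probes of a gene were averaged. Genes usable on at least 2 arrays were fitted with diabetes and genotype terms, with Benjamini-Hochberg adjustment over all genes. The fit was tested on simulated data. The members and lists were chosen with earlier results of these data known. Named were the members, in each list the genes that passed or else the 4 with the largest mean diabetes difference, and the 3 nearest genes of each member; Gclc, Gclm, Lta4h, Nfe2l2, Cbr3 and genes without usable spots were named after their values were seen. Sequences and places are from RefSeq, GRCm38.p6. Some genes that the naming rule selects are not reported here.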

Additional observations from a re-analysis of the deposited data

Results flagged for a closer look

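Ephx1 had opposite signs between KO and WT in the 2 diabetic states, with a log2 difference of -0.299 between DM-KO and DM-WT and of 0.0692 between ND-KO and ND-WT. The difference between the states was not tested, since each group has 1 array. The nondiabetic value is within the spot-to-spot spread of 0.131 and the diabetic one is not, but that spread is 1 SD between control spots and not a cutoff.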

How the results depend on the processing

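The median size of the diabetes difference over the 6 genes and both genotypes was 0.95 on the log2 scale, and 1.10 with an offset of 16. No diabetes difference of a member changed direction under the alternatives run. Changes of the filter could not alter these values, as every member was usable on all 4 arrays. Listed pathway genes passing were 0 as reported, 4 with median scaling (Ggct, Nat8, Cbr1 and Cbr3) and 4 with edge spots left out (Mgst1, Ggct, Cbr1 and Cbr3). Cbr3 is in both counts, though it was usable on only 2 arrays and was brighter on the diabetic ones. All genes passing for diabetes were 1 as reported, 82 with median scaling, 95 with edge spots left out and 0 with offset 16, no background correction, the value table, no second factor or an intensity trend. For genotype they were 3 as reported, 14 with median scaling, 12 with edge spots left out, 1 with offset 16, 1 with genes measured on all 4 arrays and 0 in the value table. The cause was not tested. The lowest adjusted p of a member for genotype over all settings was 0.225 (Gsta3, edge spots left out, limma). In WT, median scaling put Gsta2 at 0.83, Gsta3 at 0.28, Gsta4 at 0.53 and Ephx1 at 1.23, so 4 members rather than 5 were at least 1.5-fold different there. Between the diabetic arrays, Gsta2 stood at 0.01 with median scaling and at -0.15 in the value table, against -0.08 as reported. Leaving out an array was not possible, as each group has 1. Ltc4s and Ces1g are dim against the background, which limits their folds, and the number of arrays limits every value.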
